A study of Mus musculus with 16 samples.

Results

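RNA-seq of progenitors given N1-acetylspermidine (N1-AcSpd) was compared with RNA-seq of untreated progenitors, which took 4 of the 16 libraries of the series. The cells came from 3D–3C organoids, a Matrigel culture of epidermal cells from C57BL/6J mice in which hair follicle stem cells (HFSCs) and their progeny live side by side. Organoids were cultured for 2 weeks, either untreated or with N1-AcSpd in the medium for the last 72 h, and then sorted into α6+CD34- progenitors and α6+CD34+ HFSCs, each of which was read by RNA-seq and by Ribo-seq. Every group held 2 libraries per assay, 1 from each of 2 donor mice, and by the labels replicate 1 was the same mouse in every group and replicate 2 the other. No genotype other than the strain was given, and no transgene was named for any group. The sorted progenitors were a mixture of all α6+ cells that lacked CD34, grown in culture, and a difference in RNA may come from fewer cells of a type or from less RNA per cell, which cannot be told apart in bulk samples.

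For each gene the transcript with the most Ribo-seq counts was kept, and 12256 of the 22612 genes were tested, those whose RNA-seq counts averaged 10 or more over the 8 RNA-seq libraries. Levels are given as CPM, which are counts scaled to a library of 1000000 counts, in the order untreated mouse 1, untreated mouse 2, N1-AcSpd mouse 1, N1-AcSpd mouse 2 unless stated. They are not divided by transcript length, so that they compare libraries and not genes. Fold changes are log2 fold changes (log2FC) of N1-AcSpd over untreated progenitors with their standard error (SE), and a gene was called where its Benjamini-Hochberg adjusted p was below 0.05.

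N1-AcSpd is the product of the acetylation of spermidine by the enzyme encoded by Sat1, a step by which cells export or break down polyamines. Keratinocytes sit on the basement membrane while they proliferate, expressing Krt5 and Krt14. When they leave it they switch to suprabasal keratins such as Krt1 and Krt10 and then to a late programme in which involucrin, small proline-rich (Sprr) and late cornified envelope (Lce) proteins are crosslinked into the cornified envelope, barrier lipids are made, and kallikrein proteases prepare the cells for shedding. Many of the envelope genes lie next to each other in the epidermal differentiation complex on mouse chromosome 3.

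The proximal promoters of 4 envelope genes of that complex are printed. They were chosen after the motif search, as the called genes whose promoter held TATAAA, and do not stand for all called genes: Lce3c and Lce3d, called and in the same complex, held neither TATAAA nor the AP-1 motif. Each is the 150 bases before the transcription start in the RefSeq promoter table (GRCm38.p6, minus strand), 5′ to 3′, with matches to the AP-1 motif TGANTCA and to TATAAA in capitals. They lie at chr3:92573736-92573885 for Ivl, chr3:92438780-92438929 for Sprr1b, chr3:92485882-92486031 for Sprr1a and chr3:92687211-92687360 for Lce1d.
Ivl: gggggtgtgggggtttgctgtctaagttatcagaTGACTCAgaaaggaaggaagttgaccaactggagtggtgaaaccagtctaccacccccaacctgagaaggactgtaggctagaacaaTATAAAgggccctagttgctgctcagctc
Sprr1b: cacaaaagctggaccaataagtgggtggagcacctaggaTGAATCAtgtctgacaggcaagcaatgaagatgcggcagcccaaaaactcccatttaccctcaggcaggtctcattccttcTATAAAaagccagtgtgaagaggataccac
Sprr1a: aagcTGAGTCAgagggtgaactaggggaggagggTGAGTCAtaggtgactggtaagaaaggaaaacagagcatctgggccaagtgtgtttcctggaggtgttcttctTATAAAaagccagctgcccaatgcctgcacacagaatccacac
Lce1d: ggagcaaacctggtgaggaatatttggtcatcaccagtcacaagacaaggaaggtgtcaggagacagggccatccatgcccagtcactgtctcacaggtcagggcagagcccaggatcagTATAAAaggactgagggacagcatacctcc

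AP-1 is a family of dimeric factors long known to act on the involucrin gene, and TATAAA is the core promoter element bound by the TATA-binding protein. On either strand of the 250 bases before the start, TGANTCA, which is its own reverse complement, was found in 7.82% of the 27025 genes with a promoter, in 5.58% of the genes tested that had one and in 14 of the 36 tested cornified envelope precursors that had one (38.9%). TATAAA was found in 14.3% of all promoters, in 7.72% of those of the genes tested and in 16 of these 36 (44.4%). A promoter was matched for 14 of the 20 genes called in progenitors, all of them called higher, and 3 of the 14 held TGANTCA, 4 held TATAAA, 2 held the C/EBP motif TTGCNNAA, 1 held the Grainyhead-like motif AACNNGTT and 5 held the antioxidant response element TGACNNNGC. These last 3 motifs were found in 10.8%, 4.11% and 11.5% of all promoters, and in 8.82%, 3.63% and 14.1% of those of the genes tested. In Sprr1a the TGACNNNGC match, on the other strand, overlaps the upstream TGAGTCA. A match describes the letters of the sequence and was not tested as a binding site.

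The labels were checked against markers before any comparison. Cd34 was at 2.35 and 3.57 CPM in untreated progenitors and at 2.40 and 5.37 CPM in N1-AcSpd progenitors, against 67.3 to 90.1 CPM in the 4 HFSC libraries. Itga6, which encodes α6 integrin, was at 935 to 984 CPM in the 4 progenitor libraries. The basal keratins Krt5, at 20186 to 21475 CPM, and Krt14, at 15576 to 17787 CPM, were abundant in all of them. The libraries thus carried what the sort selects, and none of these 4 genes was called.

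Depth was similar among RNA-seq libraries, with 21612795 to 31524062 counts on the kept transcripts, and far lower among Ribo-seq libraries, with 34475 to 268052 counts. The 2 N1-AcSpd HFSC RNA-seq libraries stood apart. Taken across the 12256 genes, the difference between mouse 2 and mouse 1 had a Pearson correlation of 0.352 to 0.591 between any pair of the other 3 groups, but of -0.572 to -0.395 when the N1-AcSpd HFSC group was set against each of them. Vim, as an example, was at 0.33 and 17.5 CPM in untreated progenitors of mouse 1 and mouse 2 and at 1.27 and 42.3 CPM in N1-AcSpd progenitors, but at 9.18 and 1.63 CPM in N1-AcSpd HFSCs. Whether the replicate numbers of these 2 libraries are exchanged cannot be told from the labels, which were kept as given. In the progenitor comparison these libraries enter the minimum count, the normalization and the shared estimate of the spread, and the number of called genes is given with and without them.

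N1-AcSpd progenitors carried more RNA of late epidermal differentiation genes than untreated progenitors, and less RNA of a few genes of basal and hair follicle stem cells. The edgeR quasi-likelihood fit of the 8 RNA-seq libraries called 20 genes: 18 were higher (0.147% of the genes tested) and 2 were lower (0.0163%). At an unadjusted p below 0.05 there were 601 higher and 580 lower genes, and the median log2FC of all genes was -0.01. Whether called or not, 5716 of the 12256 genes were higher and 6540 lower. In both mice 3469 were higher and 4024 were lower. With the mouse as a block and the 4 progenitor libraries alone, 370 genes were higher (3.02%) and 241 were lower (1.97%), and all 20 were among them. This paired fit compares the libraries within each mouse and has 1 residual degree of freedom, and below a gene is said to have passed the paired fit where it was called there. Taken 1 gene at a time, an exact permutation test of 2 libraries against 2 cannot give a p below 0.333, so that the calls rest on the spread shared across genes.

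The number of called genes depended on the design, on how transcripts were combined and on single libraries. The mouse as a block in all 8 libraries left 1 gene called, Ivl, or 413 where the replicate numbers of the N1-AcSpd HFSC libraries were exchanged, an analysis chosen after the data were seen. Counts summed over the transcripts of a gene left 1 of the 20 called. Without the 2 N1-AcSpd HFSC libraries the fit without a block called 2 genes, both higher, and the fit with the block called 383 genes, 235 of them higher, including all 20. Leaving out untreated progenitor replicate 1, untreated progenitor replicate 2 or N1-AcSpd progenitor replicate 1 left 0 genes called by edgeR, with 754, 647 and 952 genes at an unadjusted p below 0.05, and leaving out N1-AcSpd progenitor replicate 2 left 2 genes. DESeq2 on the same libraries called 185 genes, 128 of them higher, including all 20. The groups did not overlap in any of the 20 genes, as in 4902 of the 12256 genes tested (40.0%).

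**Figure D1:**
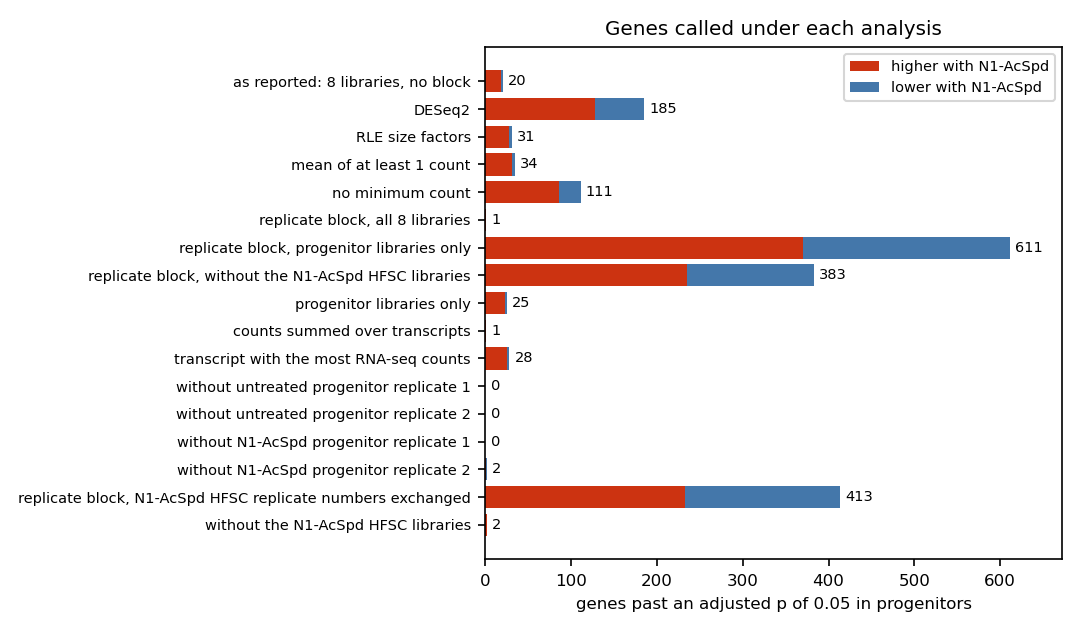
Number of genes past an adjusted p of 0.05 in progenitors (x axis) under each analysis (y axis), with genes higher with N1-AcSpd in red, genes lower in blue and the total printed beside each bar. The count runs from 0, without 1 of 3 of the progenitor libraries, to 611, with the mouse as block in the progenitor libraries alone.

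Ivl, which encodes involucrin, the scaffold of the cornified envelope, had the smallest p of all genes. Its level was 21.3 and 21.6 CPM in untreated progenitors and 56.3 and 56.1 CPM in N1-AcSpd progenitors, which is a log2FC of 1.39 (SE 0.10, adjusted p = 0.0055). Both mice were almost equal within each group. It was called in 14 of the 17 analyses run, more than any other of the 20 genes, with log2FC between 1.38 and 1.42.

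Other precursors of the envelope followed. Sprr1b, a proline-rich bridge between envelope proteins, was at 52.6 and 46.5 CPM in untreated progenitors and at 134 and 169 CPM with N1-AcSpd (log2FC 1.61, SE 0.16, adjusted p = 0.0364). Its relative Sprr1a went from 50.6 and 59.9 CPM to 223 and 242 CPM (log2FC 2.07, adjusted p = 0.0451). Cdsn encodes corneodesmosin, which holds the cornified cells together. It went from 20.2 and 23.9 CPM to 105 and 110 CPM (log2FC 2.28, adjusted p = 0.0441). In all of these genes the 2 treated libraries lay well above the 2 untreated ones, which the choice of called genes largely sets.

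The late cornified envelope genes had the highest folds at low levels. Lce3c rose from 1.07 and 1.98 CPM to 14.4 and 16.3 CPM (log2FC 3.33, SE 0.35). Lce3d rose from 0.66 and 0.95 CPM to 9.32 and 8.46 CPM (log2FC 3.46), and Lce1d rose from 0.16 and 0.21 CPM, which is close to the floor of 3 counts, to 2.58 and 1.93 CPM (log2FC 3.54). Kprp, a keratinocyte proline-rich protein of the same locus, had the highest log2FC of the called genes, 3.76 (SE 0.43), from 0.91 and 0.43 CPM to 11.8 and 6.53 CPM. Lce3a had no count in either untreated library and 31 and 24 counts with N1-AcSpd, which is at least 10.2-fold higher against a floor of 3 counts per library, and passed the paired fit alone (adjusted p = 0.0013). The Lce and Sprr2 genes are close copies of each other, and how reads shared between copies were counted is not given in the sources used here, so that the split among them is uncertain.

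**Figure D2:**
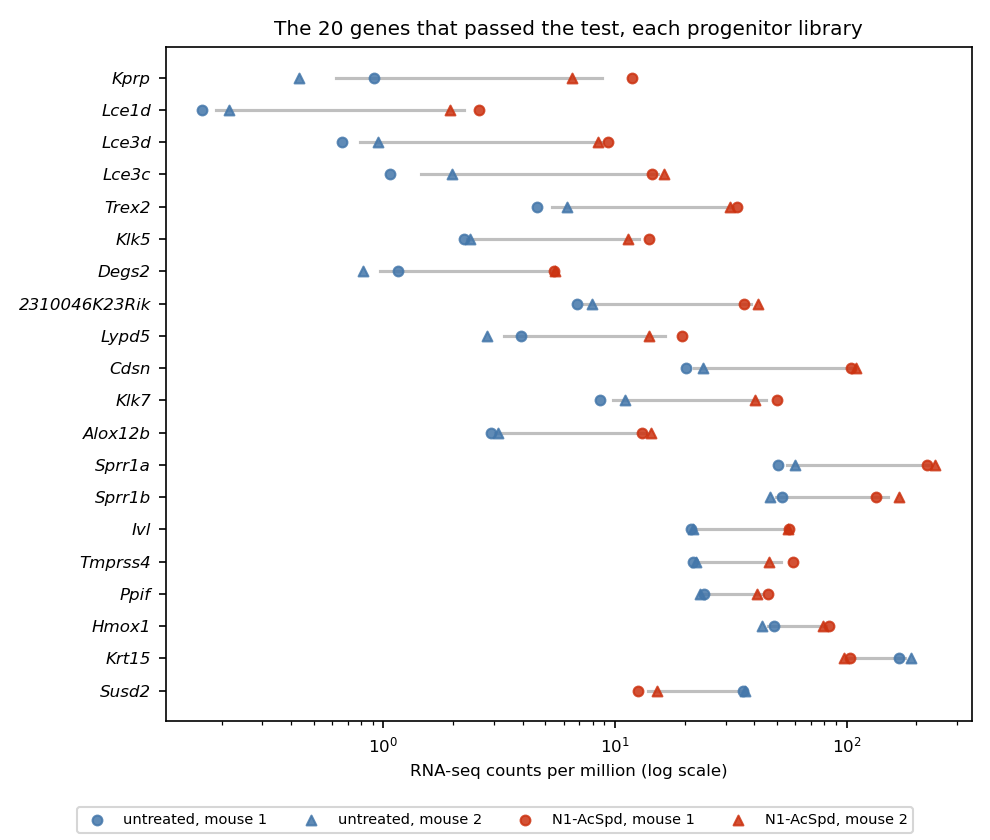
Level of each of the 20 called genes (y axis) in RNA-seq CPM on a log scale (x axis), with circles for mouse 1, triangles for mouse 2, blue for untreated and red for N1-AcSpd progenitors, and a grey line between the geometric means of the groups. The treated libraries lie to the right of the untreated ones in 18 genes and to the left in Krt15 and Susd2, without overlap.

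Taken as a list, 43 of the 53 cornified envelope precursors passed the minimum count, 7 of these were called, all higher, and 33 passed the paired fit, all higher. DESeq2 called 22, all higher. The median log2FC of the 43 genes was 2.21, also with Lce3a set at its lower bound, beside -0.01 for all genes, and 37 of them were higher in both mice. Cnfn (cornifelin, 7.95 and 10.8 to 57.4 and 58.3 CPM, log2FC 2.63) and Crct1 (4.90 and 5.29 to 44.2 and 36.4 CPM, log2FC 2.98) passed the paired fit, with adjusted p of 0.0586 and 0.0509 without the block. Loricrin (Lor), the main envelope protein of the epidermis, was at 1.07 and 0.56 CPM untreated and 3.12 and 1.93 CPM with N1-AcSpd, and passed the paired fit (log2FC 1.63). The exceptions were Sprr2k, Scel, Sprr2a2 and Sprr2a1, with log2FC between -0.61 and -0.11, none of which passed either fit, and Tchh (0.11) and Ppl (0.13), which encode trichohyalin and periplakin. A minimum count met partly through the treated libraries favours genes that are high there, and the 10 envelope precursors below it were not tested.

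Along chromosome 3 the higher genes were neighbours. Between S100a10 and S100a1 (chr3:90511034-93564643, GRCm38), an interval drawn after the values were seen, 57 genes were tested, 8 were called, all higher, and 36 passed the paired fit, all higher. The log2FC was above 0 in 50 of the 57, beside 5716 of all 12256 genes, and the median was 2.05. The families differed in level of change. All 16 Lce genes were higher, with a median log2FC of 3.35 when Lce3a is set at its bound, and 11 of 14 Sprr genes were higher with a median of 1.59. Some met the minimum count mainly through N1-AcSpd libraries, such as Lce1d, with 4 and 5 counts in untreated and 57 and 40 in N1-AcSpd progenitors. For such genes the minimum favours a higher value, so that these counts and medians describe only the genes tested. The 11 S100 genes, which encode calcium-binding proteins and flank the interval, had a median of 0.15, and 2 of them, S100a8 and S100a9, passed the paired fit. Ivl, Kprp and 2310046K23Rik (6.84 and 7.95 to 36.1 and 41.5 CPM, log2FC 2.39) were the called genes of the complex outside these families.

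**Figure D3:**
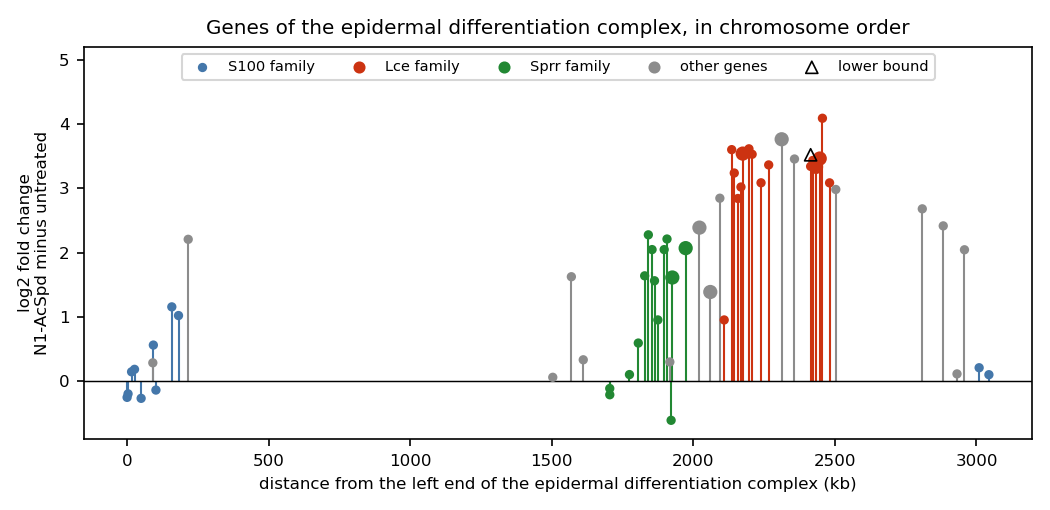
Log2 fold change of each tested gene of the epidermal differentiation complex (y axis) against its distance in kb from the left end of the interval (x axis), coloured by gene family, with larger dots for the 8 called genes and a triangle above Lce3a, drawn at its lower bound. The Sprr, Lce and neighbouring genes in the middle stand above 0 with few exceptions, while S100 genes at both ends lie closer to 0.

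Suprabasal keratinocyte genes were higher as well, though the mice differed more. Of 24 genes tested, 1 was called, 12 were called by DESeq2 and 17 passed the paired fit, all of them higher, and the median log2FC was 1.23, or 0.66 with a minimum mean of 1 count and 0.68 with no minimum. Krt1, the first keratin of the spinous layer, was at 30.2 and 21.2 CPM in untreated and at 119 and 63.5 CPM in N1-AcSpd progenitors (log2FC 1.83, SE 0.37). Its partner Krt10 was at 10.1 and 6.45 CPM and at 35.2 and 15.8 CPM (log2FC 1.62). Neither was called without the block (adjusted p of 0.125 and 0.298), nor with the block in all 8 libraries (0.251 and 0.394), while both passed the paired fit. In both genes mouse 1 was above mouse 2 in both groups. The desmosomal genes of the upper layers showed the same order: Dsc1 went from 16.1 and 14.7 to 65.3 and 46.5 CPM (log2FC 1.86, adjusted p = 0.0509), and Dsg1b from 61.5 and 49.9 to 152 and 112 CPM (log2FC 1.24, adjusted p = 0.0587). Lypd5, a Ly6-domain surface protein, was the called gene, with 3.92 and 2.79 CPM untreated and 19.5 and 13.98 CPM with N1-AcSpd (log2FC 2.31). Desmosome and junction genes as a whole did not move together: 14 of 29 were higher, 4 passed the paired fit, all higher, and the median log2FC was -0.02. One of the 4 was Gjb6, which encodes connexin 30, with 8.74 and 11.2 CPM untreated and 22.5 and 23.5 CPM with N1-AcSpd (log2FC 1.21).

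Enzymes that build the skin barrier were higher. Among 32 barrier lipid and crosslinking enzymes 2 were called, 13 were called by DESeq2 and 19 passed the paired fit, all of them higher, with a median log2FC of 0.99. Alox12b, the lipoxygenase that starts the making of the lipid envelope, was at 2.93 and 3.14 CPM in untreated and at 13.1 and 14.4 CPM in N1-AcSpd progenitors (log2FC 2.18, SE 0.24, adjusted p = 0.0364). Degs2, a desaturase and hydroxylase that makes phytoceramides, was at 1.15 and 0.82 CPM and at 5.43 and 5.51 CPM (log2FC 2.47, adjusted p = 0.04). In both genes the treated values exceeded the untreated ones in each mouse, which the choice of called genes largely sets. Elovl4, which elongates very long fatty acids (14.8 and 13.2 to 56.8 and 44.8 CPM), and Tgm1, the transglutaminase that crosslinks the envelope (20.1 and 13.4 to 63.0 and 39.7 CPM), passed the paired fit.

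Proteases of the outer epidermis were higher in part. Of 26 proteases and inhibitors, 3 were called and 12 passed the paired fit, all higher, while the median log2FC was 0.44. Klk5 and Klk7 encode kallikreins that cut corneodesmosin and its partners during shedding. Klk7 was at 8.61 and 11.05 CPM untreated and at 50.0 and 40.3 CPM with N1-AcSpd (log2FC 2.20, SE 0.29), and Klk5 at 2.23 and 2.36 CPM and at 14.1 and 11.4 CPM (log2FC 2.47, SE 0.33). They are neighbours too: in the interval from Klk14 to Klk15 (chr7:43690418-43939639), drawn after the values were seen, all 7 genes tested were higher, 2 were called, 5 passed the paired fit and the median log2FC was 1.95. The membrane protease gene Tmprss4 was at 21.8 and 22.4 CPM and at 58.7 and 46.3 CPM (log2FC 1.25, adjusted p = 0.04). Asprv1, an aspartic protease that processes filaggrin, was at 16.9 and 13.2 CPM and at 105 and 48.9 CPM and passed the paired fit.

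**Figure D4:**
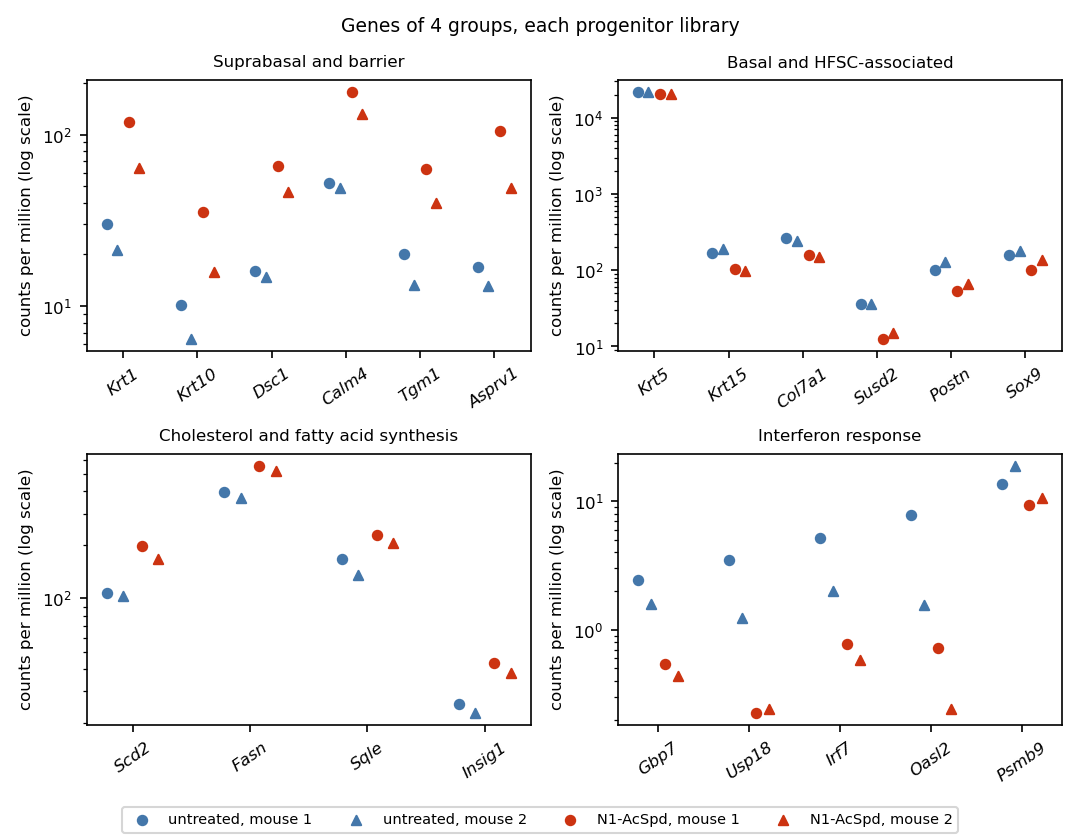
Level of named genes of 4 groups (x axis) in each progenitor library, in CPM on a log scale (y axis), with circles for mouse 1, triangles for mouse 2, blue for untreated and red for N1-AcSpd. Suprabasal and barrier genes and lipid synthesis genes are higher with N1-AcSpd in both mice, interferon genes are lower, and Krt5 lies within a narrow band at 20186 to 21475 CPM while Krt15, Col7a1, Susd2, Postn and Sox9 are lower with N1-AcSpd.

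Trex2, which encodes a DNA exonuclease of keratinocytes, was at 4.62 and 6.19 CPM untreated and at 33.6 and 31.4 CPM with N1-AcSpd (log2FC 2.59, SE 0.30, adjusted p = 0.0364). Hmox1, the heme oxygenase induced by oxidative stress, was at 48.8 and 42.9 CPM and at 84.2 and 79.0 CPM (log2FC 0.83, SE 0.10, adjusted p = 0.0409). Ppif, the cyclophilin of the mitochondrial matrix, was at 24.3 and 23.3 CPM and at 45.8 and 41.1 CPM (log2FC 0.87, adjusted p = 0.0441). Hmox1 and Ppif had the smallest log2FC of the 18 genes, whose median was 2.30. In untreated progenitors the mean level of these 18 genes ran from 0.19 to 55.3 CPM.

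The 2 genes called lower, Susd2 and Krt15, are both counted here among HFSC identity genes, and Krt15 also among basal genes. The 241 genes lower in the paired fit were of more kinds, among them 20 interferon response genes, given below. Susd2, which encodes a membrane protein with a sushi domain, was at 35.8 and 36.6 CPM in untreated and at 12.6 and 15.2 CPM in N1-AcSpd progenitors (log2FC -1.38, SE 0.16, adjusted p = 0.0364). Krt15, a keratin of the bulge and of basal cells, was at 169 and 189.8 CPM and at 104 and 97.0 CPM (log2FC -0.84, SE 0.11, adjusted p = 0.047). In HFSCs Krt15 was far more abundant, at 682 and 765 CPM untreated and at 347 and 308 CPM with N1-AcSpd. Just outside the threshold stood Col7a1, which encodes the anchoring fibril collagen of the basement membrane, at 268 and 245 CPM untreated and 157 and 149 CPM with N1-AcSpd (log2FC -0.74, SE 0.11, adjusted p = 0.0509). Next were Atp2b4, a calcium pump of the plasma membrane (31.2 and 34.9 against 20.5 and 18.4 CPM), and Nedd9, a scaffold of focal adhesions (208 and 183 against 103 and 123 CPM), both with an adjusted p of 0.0586. These 3 passed the paired fit, lower.

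The lists behind them moved little. Of 43 basal keratin and basement membrane genes 1 was called, lower, 4 were called by DESeq2 and 11 passed the paired fit, all lower, and 36 had a log2FC below 0, with a median of -0.24. Lama3, a chain of the main laminin of the epidermal basement membrane, was at 947 and 915 CPM untreated and 667 and 706 CPM with N1-AcSpd (log2FC -0.44) and passed the paired fit, as did Col4a5 (31.9 and 25.9 against 17.8 and 14.9 CPM). Col17a1 and Itgb4, of the hemidesmosome, passed neither fit, with log2FC of -0.24 and -0.19. Of 31 HFSC identity genes 2 were called, Susd2 and Krt15, which is in both lists, and 7 passed the paired fit lower and 1 higher, while the median was -0.23, or -0.15 with a minimum mean of 1 count, -0.05 within mouse 1 and -0.32 within mouse 2. Postn, which encodes the matrix protein periostin, was at 102 and 128 CPM and at 53.3 and 66.6 CPM (log2FC -0.94). Sox9, a transcription factor of follicle stem cells, was at 160.0 and 178 CPM and at 102 and 137 CPM (log2FC -0.50). Both passed the paired fit, together with Tnc (log2FC -0.64).

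Transcription factors of epidermal differentiation did not move as a list: 0 of 46 were called by edgeR and 4 by DESeq2, with 5 higher and 2 lower at an unadjusted p below 0.05, and the median log2FC was 0.08. The paired fit gave 8 higher and 1 lower. Grhl3, a Grainyhead-like factor needed for the barrier, was at 17.8 and 13.2 CPM untreated and 47.5 and 30.9 CPM with N1-AcSpd (log2FC 1.34), and Zfp750, which acts with it in terminal differentiation, was at 20.4 and 14.7 CPM and at 54.3 and 35.7 CPM (log2FC 1.36). Klf4, a factor needed to complete the barrier (233 and 212 to 278 and 307 CPM), passed the paired fit as well, as did Grhl3 and Zfp750. Wound and stress keratins and alarmins had 0 called genes of 29, 8 higher in the paired fit and a median log2FC of 0.19. Krt16, a keratin of wounded skin, was at 2213 and 1746 CPM and at 3478 and 2423 CPM (log2FC 0.58), and Defb14, a beta-defensin, was at 0.91 and 1.59 CPM and at 5.57 and 5.95 CPM (log2FC 2.20).

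The genes that handle polyamines did not move together in RNA, with log2FC from -0.61 to 0.75. Of 27 tested, 0 were called by edgeR and 1, higher, by DESeq2, and the median log2FC was 0.02. At an unadjusted p below 0.05, 5 were higher and 3 lower, beside 601 higher and 580 lower of all 12256 genes. Mat2a, which makes the S-adenosylmethionine that polyamine synthesis uses, was at 75.1 and 78.0 CPM in untreated and at 118 and 139.7 CPM in N1-AcSpd progenitors (log2FC 0.75, SE 0.11, adjusted p = 0.0509) and was higher in the paired fit, where Azin2, an antizyme inhibitor, was lower. The synthesis enzymes Odc1 (log2FC 0.03), Amd1 (-0.03), Srm (0.27) and Sms (-0.01) and the oxidases Paox (-0.01) and Smox (0.16) passed neither fit. Sat1, the acetyltransferase that produces N1-AcSpd, was at 209 and 202 CPM untreated and at 209 and 471 CPM with N1-AcSpd (log2FC 0.73, SE 0.33, adjusted p = 0.547). Its higher mean came from the treated library of mouse 2 alone, so that the groups were not separated by more than the spread.

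Cholesterol and fatty acid synthesis genes were higher by smaller amounts. None of 42 was called by edgeR, DESeq2 called 10, all higher, 26 higher and 1 lower had an unadjusted p below 0.05, and 25 were higher and 2 lower in the paired fit, with a median log2FC of 0.46. Scd2, a fatty acid desaturase, was at 108 and 104 CPM untreated and at 196 and 168 CPM with N1-AcSpd (log2FC 0.78, SE 0.11, adjusted p = 0.0509). Insig1, a sterol sensor (log2FC 0.76), Fasn, the fatty acid synthase (0.49), and Sqle, an enzyme of cholesterol synthesis (0.52), were also higher in the paired fit. The NRF2 antioxidant targets had 1 called gene of 34, Hmox1, 12 higher in the paired fit and a median of 0.31, which was 0.20 without mouse 1. Gsta4, a glutathione transferase, was at 41.4 and 41.8 CPM and at 127 and 83.5 CPM (log2FC 1.34).

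Interferon response genes had the lowest median of the 33 lists. Their median log2FC was -0.70, 36 of 37 were lower and 35 were lower in both mice. None was called by edgeR without the block, DESeq2 called 9, all lower, 21 lower genes had an unadjusted p below 0.05, and 20 were lower in the paired fit. The 37 genes summed to 2794 and 3485 CPM untreated and to 2101 and 3047 CPM with N1-AcSpd. Most of those named here were at low levels, and some differed between the mice. Irf7, the factor that amplifies the response, was at 5.15 and 2.02 CPM in untreated and at 0.77 and 0.58 CPM in N1-AcSpd progenitors (log2FC -2.40, SE 0.60). Usp18 was at 3.50 and 1.25 CPM and at 0.23 and 0.24 CPM, and Oasl2 at 7.83 and 1.55 CPM and at 0.72 and 0.24 CPM, both highest in the untreated library of mouse 1. Gbp7, a guanylate-binding protein, had the smallest p of the list, at 2.43 and 1.59 CPM and at 0.54 and 0.44 CPM (log2FC -2.03, adjusted p = 0.111). Psmb9, a subunit of the immunoproteasome, was at 13.6 and 18.7 CPM and at 9.41 and 10.5 CPM (log2FC -0.70).

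Cell growth lists moved in small steps. Ribosome biogenesis and RNA polymerase I genes were higher in 91 of 95, with a median log2FC of 0.21, 0 called, 3 called by DESeq2 and 10 higher in the paired fit. At an unadjusted p below 0.05, 32 of the 95 were higher and 0 lower, beside 601 and 580 of all 12256 genes. Nolc1, a nucleolar chaperone, was at 129 and 121 CPM untreated and at 172 and 168 CPM with N1-AcSpd (log2FC 0.45). Cytosolic ribosomal proteins had a median of -0.04 and 0 of 81 passed any of these fits. Mitosis genes were lower in 68 of 74, of which 46 were lower in both mice, beside 6540 and 4024 of all 12256 genes. Their median was -0.15, and 3, Cenpf, Aspm and Top2a, were lower in the paired fit. Mki67, the proliferation marker, was at 565 and 400.4 CPM untreated and at 465 and 311 CPM with N1-AcSpd and passed neither fit. Mouse 1 was above mouse 2 in both groups, and the list's median was -0.05 within mouse 1 and -0.35 within mouse 2. DNA replication genes had a median of 0.07 and 0 of 60 passed, also at an unadjusted p below 0.05. Glycolysis and hypoxia genes had a median of -0.20, or -0.09 without mouse 1, with 9 of 37 lower in the paired fit, among them P4ha1 (114 and 112 against 80.1 and 88.3 CPM) and Bnip3 (170.4 and 164 against 90.5 and 124 CPM).

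**Figure D5:**
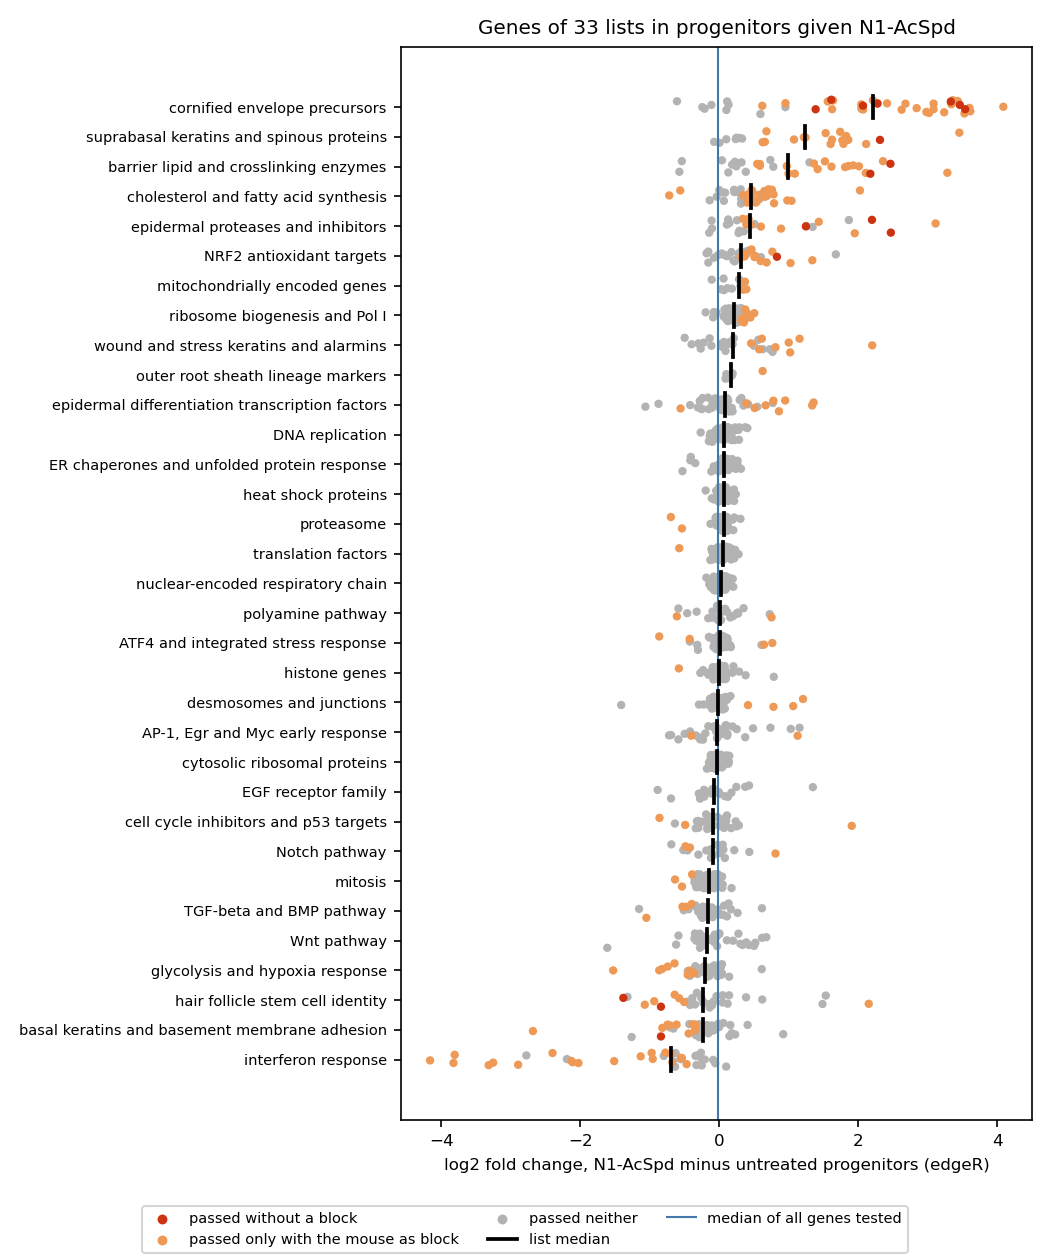
Log2 fold change in progenitors (x axis) of each tested gene of 33 pathway lists (y axis, ordered by median), in red where the gene was called without a block, in orange where it passed the paired fit alone and in grey otherwise, with a black bar at each list's median, a blue line at the median of all genes and Lce3a at its lower bound. The medians run from 2.21 for cornified envelope precursors to -0.70 for interferon response genes, and most lists lie within 0.25 of the line.

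The medians of the other lists lay between -0.17 and 0.29: Wnt (-0.17), TGF-beta and BMP (-0.16), Notch (-0.09), cell cycle inhibitors and p53 targets (-0.09), EGF receptor family (-0.08), early response factors (-0.03), histones (-0.00), ATF4 targets (0.01), nuclear-encoded respiratory chain (0.02), translation factors (0.06), proteasome (0.07), heat shock proteins (0.07), ER chaperones (0.07), outer root sheath (0.17) and mitochondrially encoded genes (0.29). In these lists and those above, the sign of the median turned in at least 1 analysis for the desmosome, early response, EGF receptor, TGF-beta, DNA replication, cell cycle inhibitor, ribosomal protein, ATF4, respiratory chain and histone lists. None of the genes of the 15 lists whose medians are given here was called by edgeR without a block, and DESeq2 called 2 of them, both lower, in the TGF-beta list. At an unadjusted p below 0.05 each of these 15 lists had at most 5 genes in a direction. The largest counts were 5 of 35 lower in the TGF-beta list and 5 of 36 lower among cell cycle inhibitors, with 0 and 1 higher. Of all 12256 genes 580 were lower and 601 higher at that threshold.

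The gene with the smallest p of each such list shows how far they moved. Some passed the paired fit: Notch3 (16.6 and 17.5 to 35.2 and 24.6 CPM, log2FC 0.81), Lypd3 of the outer root sheath list (0.63), Cdkn1c, a cell cycle inhibitor (1.91), and mt-Nd1 (0.37) were higher. Mxi1, a Myc antagonist (-0.40), Vldlr (-0.42), the initiation factor gene Eif1b (-0.58) and the histone gene Hist1h2bn (-0.58) were lower there. The others passed neither fit, with log2FC of -0.27 for Wls, -0.29 for Erbb3, 0.41 for Orc1, -0.18 for Rpl13, 0.31 for Sdf2l1, 0.24 for Hspa1b and 0.20 for Ndufa12. In the TGF-beta and BMP list 4 genes were lower in the paired fit, among them Inhba, an activin subunit (78.6 and 54.8 against 34.8 and 29.6 CPM). Tgfbi, a matrix protein induced by TGF-beta, was at 492 and 524 CPM untreated and at 369 and 335 CPM with N1-AcSpd (log2FC -0.53).

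Markers of other cell types were followed in 7 lists. Fibroblast markers were higher in 9 of 9 tested, with 0 called by edgeR and 4 that passed the paired fit, all higher. The summed level of the 15 listed was 4.16 and 29.4 CPM in untreated and 6.97 and 73.6 CPM in N1-AcSpd progenitors, so that it followed mouse 2 in both groups. Lum and Mfap5 of that list were at 0 in all of them. Sebocyte markers were higher in 5 of 5 tested, with sums of 11.8 and 10.1 CPM and of 28.5 and 18.9 CPM, and Mc5r and Awat1 were at 0. Melanocyte markers summed to 9.03 and 10.1 CPM and to 8.47 and 7.88 CPM, and immune markers to 11.9 and 19.9 CPM and to 6.61 and 17.5 CPM with Ptprc at 0. Endothelial markers summed to 1.81 and 1.59 CPM and to 2.54 and 1.35 CPM, Merkel cell markers to 2.06 and 1.03 CPM and to 1.95 and 3.87 CPM, and inner root sheath and hair shaft markers to 23.5 and 22.3 CPM and to 23 and 16 CPM. Dgat2, a triglyceride enzyme of the sebocyte list (10.0 and 7.95 to 24.98 and 15.4 CPM), passed the paired fit, while the genes of smallest p in the other lists, Col5a1 (log2FC 0.91), Mitf (-0.49), Cd74 (-0.99), Tek (0.46), Krt18 (0.93) and Krt32 (-1.05), passed neither fit. The part of other cells in the differences was not tested.

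HFSCs of the same organoids allow the nearest comparison. The progenitor and HFSC comparisons share mice but no library. Both come from the same fit and share its estimate of the spread, so that their p-values are not independent. In HFSCs the same fit called 0 genes (1045 at an unadjusted p below 0.05, and 126 called by DESeq2), yet all 20 genes called in progenitors had the same direction there, each with an unadjusted p below 0.05. Ivl was at 15.6 and 15.0 CPM in untreated and at 29.0 and 29.5 CPM in N1-AcSpd HFSCs (log2FC 0.93), Sprr1b at 26.6 and 28.5 CPM and at 77.6 and 61.3 CPM (1.33), and Susd2 at 61.6 and 81.8 CPM and at 49.9 and 49.4 CPM (-0.53). The cornified envelope list had a median log2FC of 1.46 in HFSCs, the interferon list of -0.72 and the cholesterol and fatty acid list of 0.56. The test of the difference between the cell types, the interaction of cell type and treatment, called 0 genes by edgeR and by DESeq2, with 82 genes at an unadjusted p below 0.05, 4 of them among the 20. No gene was therefore shown to respond differently in progenitors and HFSCs. The N1-AcSpd HFSC libraries are those that stood apart, and which mouse each came from enters none of these fits.

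Footprints of the same lysates gave a shallow second readout. Of the 18 genes called higher, 12 had a mean of at least 1 footprint over the 8 Ribo-seq libraries. After scaling, 10 of these had more footprints with N1-AcSpd, beside 3970 of 8439 among all genes of that depth. The other 2, Tmprss4 and Ppif, had log2FC of -1.60 and -0.22. A mean of 10 footprints was reached by 3 of the 18, all with more footprints. Cdsn had 0 and 31 footprints in untreated and 28 and 23 in N1-AcSpd progenitors (log2FC 2.00), and 2310046K23Rik had 1 and 49 and then 31 and 37 (log2FC 1.77). The untreated library of mouse 2 held more footprints than the other progenitor libraries, so that raw footprints do not compare by themselves. Krt15 had 9 and 152 footprints and then 24 and 13 (log2FC -0.84), and Susd2 had 7 and 13 footprints untreated and 0 in both N1-AcSpd libraries. Among the genes that passed the paired fit with a mean of at least 10 footprints, 60 of 72 higher genes had more footprints and 63 of 78 lower genes had fewer, beside 1210 of 2261 with more footprints among all genes of that depth. The Ribo-seq fit called 2 of 8440 genes, both lower and both encoded by the mitochondrial genome, and 239 genes had an unadjusted p below 0.05, while DESeq2 called 0. The 2 called genes were mt-Co1 (89 and 114 footprints untreated, 18 and 7 with N1-AcSpd) and mt-Cytb (73 and 56, then 7 and 1). The untreated libraries held 34475 and 268052 counts and the N1-AcSpd libraries 82225 and 63891. In both genes the untreated footprints were thus a far larger share of the library in mouse 1 than in mouse 2. Their RNA was not called without the block, with log2FC of 0.12 and 0.39, the second of which passed the paired fit.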

How the data were processed

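RNA was measured in 8 RNA-seq and 8 Ribo-seq libraries of sorted cells. Per the study's methods and the submitters' processing notes, the authors trimmed with flexbar, used Bowtie 1.2.3 to discard reads of rRNA and tRNA and aligned what was left with STAR 2.7.3a to GRCm38.p5 and its transcriptome; featureCounts is named without a role, and the counted region is not given in the sources used here. The authors deposited unscaled read counts per transcript for 64026 transcripts. Tables of translational efficiency made by the authors with Riborex, which hold fold changes and p-values, gave the gene of each transcript and its symbol, and their counts were checked to equal the others (512208 of 512208 values); nothing else in them was used.

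One transcript was kept per gene. Counts over all transcripts add up to 2.53 times those kept; how reads shared by isoforms were counted is not given in the sources used here. CPM were scaled by edgeR's TMM factors. Tests used the edgeR 4.0.16 quasi-likelihood fit (R 4.3.3, limma 3.58.1) with the 4 groups of an assay as the design, all 8 libraries and Benjamini-Hochberg adjustment; the biological coefficient of variation was 14.8% for RNA-seq and 34.7% for Ribo-seq (mean of at least 1 footprint). DESeq2 1.42.0 and the other analyses are alternatives. Replicate numbers name the donor mouse in the labels, which pairs the libraries; the correlation of the mouse difference between groups was positive among 3 groups and negative for all 3 pairs with the N1-AcSpd HFSC group; the study's methods name no block, so the block is the alternative. Code was tested on simulated counts. A floor of 3 counts per library stands for 0, and covers counting error only.

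Genes named are Cd34, Itga6, Ivl, Sprr1b, Susd2, Krt15, Col7a1, 7 polyamine enzymes, the 12 called genes of smallest p per direction (filled to 5 where fewer passed), and per list the called genes (at most 6) or the gene of smallest p. Others were chosen after their values were seen, and a few named by the rule are not reported here. The members and the 33 pathway and 7 marker lists were chosen with earlier results of these data known. Promoters and positions are from RefSeq and GENCODE vM21, both on GRCm38, whose patches share coordinates.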

Additional observations from a re-analysis of the deposited data

How the results depend on the processing

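With 2 libraries per group the count of called genes turned on the spread. Against 20 called genes, DESeq2 called 185, RLE size factors 31, a minimum mean of 1 count 34 and no minimum 111. Counts summed over transcripts called 1, the replicate block in all 8 libraries 1 (Ivl), the block in the progenitor libraries alone 611 and the block without the N1-AcSpd HFSC libraries 383. With the progenitor libraries alone and no block 25 were called, 14 of them among the 20, and with the transcript of most RNA-seq counts 28. Leaving out 1 progenitor library gave 0 to 2, and leaving out a whole mouse left no residual degrees of freedom, so that folds alone were computed. Chosen after seeing the data, exchanging the replicate numbers of the N1-AcSpd HFSC libraries with the block gave 413, including all 20, and leaving these libraries out without the block gave 2. In HFSCs, with 0 called, DESeq2 called 126 and the exchanged block 191. The interaction had 0 in every analysis run. The 2 Ribo-seq calls became 0 with DESeq2 and stayed 2 in the others. The cause of these differences between analyses was not tested. Relative to these counts the folds of the 20 called genes kept their direction in all 17 analyses. The medians of the cornified envelope (2.16 to 2.55), suprabasal (0.66 to 1.44), barrier (0.79 to 1.14) and interferon lists (-0.98 to -0.64) kept theirs wherever list medians were computed. List medians were not computed for the fits that left out 1 progenitor library.

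Signs turned for genes near 0 that were not called. The log2FC of Itga6, -0.0032 as reported, became 0.011 with DESeq2 and with RLE, 0.0070 with no minimum, 0.012 with the block in the progenitor libraries, 0.014 with the block without the N1-AcSpd HFSC libraries, 0.012 in the progenitor libraries alone, 0.019 with summed transcripts, 0.015 with the transcript of most RNA-seq counts and 0.015 without the N1-AcSpd HFSC libraries. In the same order Sms, -0.0051 as reported, became 0.0087, 0.0087, 0.0049, 0.010, 0.013, 0.010, 0.029, 0.0081 and 0.013. Paox, -0.0092 as reported, became 0.0043 with DESeq2 and with RLE, 0.00097 with the block without the N1-AcSpd HFSC libraries, 0.0064 in the progenitor libraries alone, 0.020 with summed transcripts, 0.0036 with the transcript of most RNA-seq counts and 0.0088 without the N1-AcSpd HFSC libraries. Leaving out 1 library or mouse moved the log2FC from -0.041 to 0.037 for Itga6, -0.013 to 0.022 for Sms, -0.22 to 0.18 for Paox, -0.30 to 0.86 for Cd34, -0.31 to 0.30 for Odc1, -0.14 to 0.11 for Amd1, -0.15 to 0.54 for Smox and -0.21 to 0.38 for mt-Co1. The range was -2.50 to 1.26 for Cd74, -0.92 to 1.34 for Tek, -0.14 to 1.97 for Krt18, -3.28 to 0.027 for Krt32, -2.81 to 6.05 for Vim and -1.48 to 6.02 for Spp1. The shallow Ribo-seq libraries limit what footprints can show.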

Other observations

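A few further genes, chosen after their values were seen, passed the paired fit outside the groups above. Fabp5, the epidermal fatty acid binding protein, was at 759 and 558 CPM in untreated and at 1422 and 1077 CPM in N1-AcSpd progenitors (log2FC 0.92). Crabp2, which carries retinoic acid, was at 5.56 and 3.65 CPM and at 20.5 and 13.7 CPM (log2FC 1.89), and Smpd3, a sphingomyelinase, at 0.66 and 0.86 CPM and at 10.6 and 5.42 CPM (log2FC 3.39). Gsdma, a gasdermin of the skin, was at 2.68 and 2.45 CPM and at 13.9 and 8.51 CPM (log2FC 2.13). In each of these the treated library of a mouse was above the untreated library of the same mouse, which their choice by the paired fit largely sets.

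Signalling, matrix and cytoskeletal genes were among those lower in the paired fit. Fgfr2, the receptor of keratinocyte growth factor, was at 208 and 210.5 CPM untreated and at 141 and 139.6 CPM with N1-AcSpd (log2FC -0.58, SE 0.09, adjusted p = 0.0586 without the block). Col12a1 was at 660.1 and 717 CPM and at 475 and 456 CPM (log2FC -0.56). Pgf, a growth factor of the VEGF family, was at 44.8 and 19.0 CPM and at 5.57 and 7.79 CPM (log2FC -2.26), with the mice far apart before treatment. Txnip was at 29.0 and 29.2 CPM and at 16.7 and 13.4 CPM (log2FC -0.95), and Acta2, smooth muscle actin, at 50.1 and 89.1 CPM and at 33.1 and 30.1 CPM (log2FC -1.14). Spp1, which encodes osteopontin, went the other way and was higher in the paired fit, at 0.70 and 23.7 CPM and at 4.39 and 85.5 CPM (log2FC 1.88, adjusted p = 0.833 without the block). Its level followed mouse 2 like the fibroblast markers.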
